A study of Rattus norvegicus and Mus musculus with 9 samples.

Results

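Matricellular genes encode secreted proteins that sit in the extracellular matrix without building its fibres, and that tune how cells attach, migrate and receive growth factors. The 10 genes described here are the thrombospondins Thbs1 and Thbs2, the CCN genes Ccn1 to Ccn5, the tenascin Tnc, periostin (Postn) and Sparc. They were chosen by name with earlier results of these data in view, and each symbol was represented by the probe set with the highest mean signal. The rat table of 14506 named genes held 8 of the 10, and the mouse table of 19938 named genes held all 10. No rat probe set carried the symbol Thbs2 or Tnc alone, so both are described in mouse ES cells only.

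RNA was measured on arrays in 3 groups of 3 arrays. Rat embryonic stem (ES) cells of the DA strain were grown in a medium labelled 3I. Mouse ES cells of strain C57/BL6 were kept in GMEM containing 10% FBS (fetal bovine serum) and LIF, the cytokine that sustains mouse ES cells, and were freed of feeder cells before extraction, a step the labels do not state for rat ES cells. Rat embryonic fibroblasts, also DA, were kept in GMEM containing 10% FBS, so that cell type and medium cannot be told apart in the rat comparison. The labels name no separate cultures or passages, and the spread between arrays may be technical.

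Thrombospondin 1 is a trimeric glycoprotein that binds the receptors CD36 and CD47 and can release TGF-beta from its latent complex. CCN proteins are built from small cysteine-rich modules and act mainly through integrins and heparan sulfate proteoglycans. Ccn1 and Ccn2, once called Cyr61 and Ctgf, are among the best known target genes of the coactivator YAP and its DNA-binding partners, the TEAD factors, and Ccn2 is also a target of TGF-beta. In connective tissue these genes are typical products of fibroblasts, above all during wound repair.

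The sequences before the gene starts were read first, since TEAD factors recognise the short core GGAATG. RefSeq promoters of assembly GRCr8 were matched for 6 of the 10 genes, and the 250 bases before each start were searched on both strands. Capitals mark this core in either orientation. The 4 sequences printed are those of both YAP target genes, of the gene with the largest difference between the rat groups, and of a gene with no match.
Ccn2 (GRCr8 chr1:22624615-22624864, minus strand): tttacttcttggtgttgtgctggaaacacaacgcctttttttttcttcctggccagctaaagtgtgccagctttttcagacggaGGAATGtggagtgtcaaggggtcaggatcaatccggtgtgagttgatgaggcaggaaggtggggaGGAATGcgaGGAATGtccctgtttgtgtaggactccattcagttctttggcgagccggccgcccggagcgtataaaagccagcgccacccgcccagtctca
Ccn1 (GRCr8 chr2:237225690-237225939, minus strand): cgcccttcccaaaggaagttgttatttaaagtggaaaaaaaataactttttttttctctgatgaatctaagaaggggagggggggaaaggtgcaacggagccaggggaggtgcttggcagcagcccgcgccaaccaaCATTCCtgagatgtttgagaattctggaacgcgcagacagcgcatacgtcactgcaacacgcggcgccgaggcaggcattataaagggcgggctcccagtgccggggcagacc
Thbs1 (GRCr8 chr3:125510000-125510249, plus strand): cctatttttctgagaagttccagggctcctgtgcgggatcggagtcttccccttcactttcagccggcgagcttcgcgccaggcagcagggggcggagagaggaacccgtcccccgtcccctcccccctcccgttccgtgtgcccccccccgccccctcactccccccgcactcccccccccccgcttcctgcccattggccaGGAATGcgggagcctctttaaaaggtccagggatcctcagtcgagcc
Postn (GRCr8 chr2:140677811-140678060, plus strand): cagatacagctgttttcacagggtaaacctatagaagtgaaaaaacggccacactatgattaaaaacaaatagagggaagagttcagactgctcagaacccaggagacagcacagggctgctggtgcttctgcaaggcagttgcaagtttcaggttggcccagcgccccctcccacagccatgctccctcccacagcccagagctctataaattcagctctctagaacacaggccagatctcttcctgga

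The Ccn2 window held 3 matches to the TEAD core, beginning at positions -166, -101 and -92, where -1 is the last base before the start. The Ccn1 window held 1 at -113, the Thbs1 window 1 at -47 and the Sparc window 1 at -33. Postn and Tnc held none. Of 33469 rat promoter windows of the same length, 12.1% held at least 1 match and 0.0807% held 3 or more. The AP-1 motif TGANTCA stood in 6.34% of all windows and in none of the 6. The CArG box bound by SRF stood in 1.5% of all windows and in none of the 6. The SMAD-type sequence CAGACA stood in 17.2% of all windows and in those of Ccn1, Sparc and Tnc. Only this exact sequence was counted, and near matches, such as cagacg in the Ccn2 window, were not. The TATA box TATAAA stood in 12.9% of all windows and in those of Ccn2, Ccn1, Postn and Tnc. The TATAAA match began at -31 in Ccn2, -34 in Ccn1, -44 in Postn and -208 in Tnc. Closer to its start the Tnc window, not printed here, reads tatataag, which is no exact match and was not counted. No 2 matches to any of these motifs shared a base. A match describes the letters only, and binding was not measured.

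**Figure D1:**
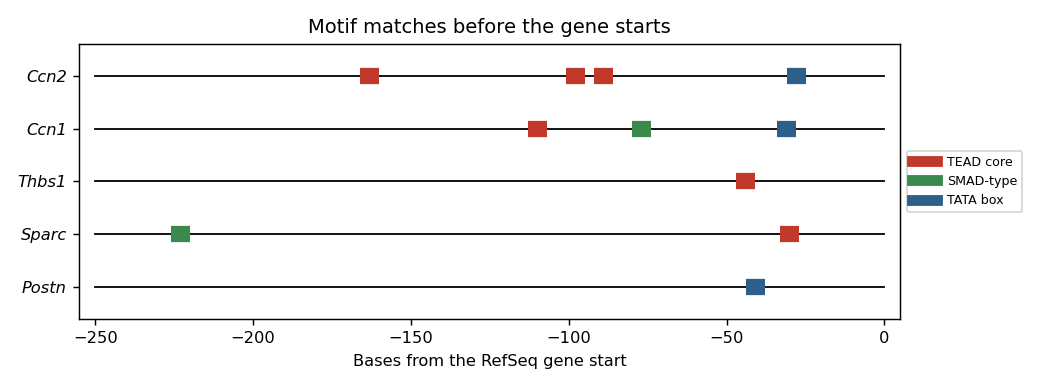
Positions of motif matches in the 250 bases before the RefSeq gene start of Ccn2, Ccn1, Thbs1, Sparc and Postn; the x axis is the distance from the start in bases, and blocks are matches to the TEAD core, the SMAD-type sequence or the TATA box on either strand. Ccn2 holds 3 TEAD core matches, Ccn1, Thbs1 and Sparc 1 each, and Postn none.

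Rat ES cells were then set against rat fibroblasts. All 8 matricellular genes were lower in rat ES cells, by 4.64-fold for Ccn5 at the least and by 135-fold for Thbs1 at the most, with a median log2 difference of -4.30 against a median of all genes near 0 (-0.00069). On every one of them the 3 rat ES arrays lay below the 3 fibroblast arrays, as they did for 28.3% of all genes. All 8 passed the rule applied to the whole table, a limma Benjamini-Hochberg adjusted p under 0.05 with at least a 2-fold decrease, which 10.1% of the 14506 genes passed in this direction. The genes were chosen with this contrast known, so these counts describe them and no p-value is given for them. In these bulk samples, fewer cells that express a gene and less RNA per cell cannot be told apart.

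Thbs1 had signals of 6.23, 6.28 and 6.55 (log2) on the rat ES arrays, against 13.42, 13.41 and 13.46 on the fibroblast arrays. Its rat ES arrays lay only slightly above the array medians of 5.71 to 5.74, while its fibroblast arrays agreed to within 0.0484. The log2 difference was the most negative of all 14506 genes, and the linear signal in rat ES cells was 0.742% of that in fibroblasts.

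Postn encodes an integrin-binding protein of collagen-rich tissues that takes part in collagen assembly. Its signals were 7.31, 7.90 and 8.26 on the rat ES arrays, against 13.22, 13.17 and 13.21 on the fibroblast arrays. The difference of -5.38 (41.5-fold) was exceeded in this direction by 27 genes. The groups stood far apart, but the rat ES arrays spread over 0.957 on the log2 scale where the fibroblast arrays spread over 0.0493.

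Sparc, which encodes a collagen-binding glycoprotein also known as osteonectin, had signals of 9.31, 9.72 and 9.93 on the rat ES arrays, against 13.27, 13.26 and 13.35 on the fibroblast arrays. It was 12.5-fold lower in rat ES cells, yet its signal there stayed well above the array medians. Within each rat ES array it ranked between percentiles 90.2 and 94.6 of the genes shared with the mouse table, against 99.9 on each fibroblast array.

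Among the CCN genes, Ccn1 and Ccn2 showed similar differences. Ccn1 had signals of 6.89, 7.36 and 7.93 on the rat ES arrays, against 11.76, 11.80 and 11.88 on the fibroblast arrays, a difference of -4.42 (21.4-fold). Ccn2 had 7.56, 8.06 and 8.22 on the rat ES arrays, against 12.48, 12.36 and 12.41 on the fibroblast arrays, a difference of -4.47 (22.1-fold). For both genes rat ES array 1 was the lowest and array 3 the highest, and the range of the rat ES arrays (1.04 for Ccn1, 0.661 for Ccn2) was wider than that of the fibroblast arrays (0.128 and 0.119).

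Ccn4, also called Wisp1 and known as a Wnt-induced gene, had signals of 6.50, 6.38 and 6.38 on the rat ES arrays, against 10.51, 10.64 and 10.62 on the fibroblast arrays. It was 18.0-fold lower in rat ES cells, and its rat ES arrays agreed to within 0.116, the narrowest range among the 8 genes there.

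Ccn3, once called Nov, and Ccn5, which lacks the C-terminal cysteine knot of its relatives, had the smallest differences. Ccn3 had signals of 5.73, 5.49 and 5.43 on the rat ES arrays, against 8.005, 8.18 and 8.19 on the fibroblast arrays, a difference of -2.58 (5.96-fold). The rat ES mean of Ccn3, 5.55, lay below the array medians, the only such mean among the 8 genes, so that the size of its difference is uncertain. The rat ES means of Ccn5 (6.27), Thbs1 (6.36) and Ccn4 (6.42) lay less than 1 log2 unit above the medians. Ccn5 had 5.91, 6.21 and 6.70 on the rat ES arrays, against 8.46, 8.34 and 8.66 on the fibroblast arrays, a difference of -2.21. The linear signal in rat ES cells was 16.8% of that in fibroblasts for Ccn3 and 21.6% for Ccn5, against 2.41% for Postn, 4.52% for Ccn2, 4.67% for Ccn1, 5.55% for Ccn4 and 8.03% for Sparc.

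**Figure D2:**
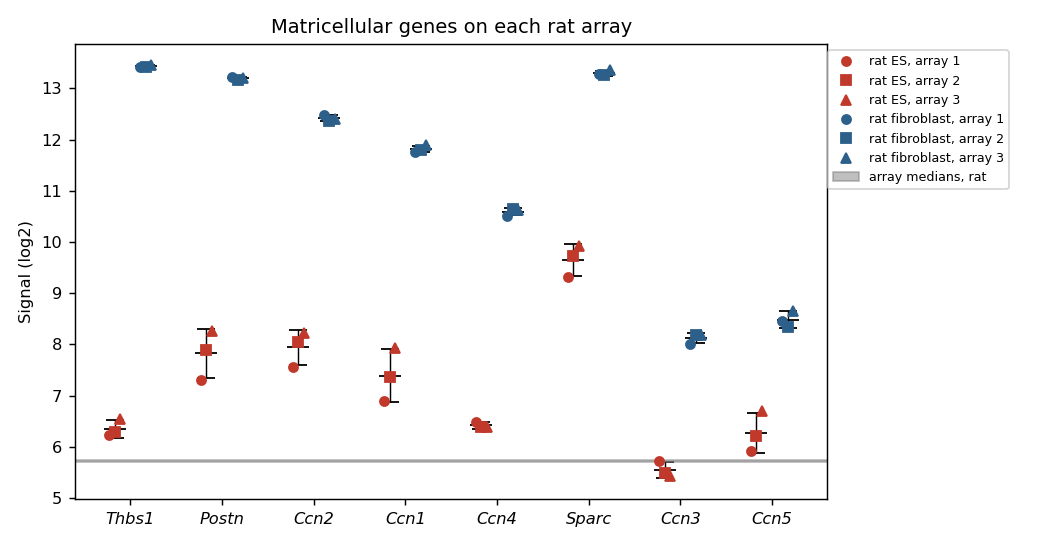
Signals (log2, y axis) of the 8 matricellular genes on each rat array, with rat ES arrays left of fibroblast arrays for each gene; marker shapes give the array number, black bars the mean ± SD (n = 3), and the grey line the range of the array medians. All rat ES arrays lie below all fibroblast arrays, from a difference of -7.07 for Thbs1 to -2.21 for Ccn5, and only Ccn3 has a rat ES mean below the array medians.

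Most of the 8 genes varied more among rat ES arrays than among fibroblast arrays, and in a common pattern. The share of all genes with a wider range among rat ES arrays was not counted. Rat ES array 1 was the lowest and array 3 the highest for 6 of the 8 genes (Thbs1, Ccn1, Ccn2, Ccn5, Postn and Sparc), an order found in 22.5% of all genes. Array 3 exceeded array 1 by more than 0.5 for 5 of them, as it did in 2.13% of all genes. The differences between these arrays were 1.04 for Ccn1, 0.957 for Postn, 0.782 for Ccn5, 0.661 for Ccn2, 0.615 for Sparc and 0.325 for Thbs1. Ccn3 and Ccn4 went the other way, with array 3 minus array 1 at -0.30 and -0.11. Without array 3 the difference from fibroblasts was -4.69 for Ccn1 and -5.60 for Postn, and without array 1 it was -4.17 and -5.12.

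Fibroblast markers also differed among the rat ES arrays. Of 12 markers, 11 were higher on array 3 than on array 1, against 6 of the 8 matricellular genes and 55.3% of all genes, and 7 of 12 had array 1 lowest and array 3 highest. Array 3 was also above array 1 for 13 of 16 YAP/TEAD target genes and 13 of 15 genes of the TGF-beta, YAP/TEAD and SRF pathways. The counts were 12 of 18 for receptors and 7 of 12 for other matricellular genes. For members of the same gene families the count was 4 of 11, a smaller share than that of all genes. The markers' summed linear signal ranged from 1898 to 3000 over the rat ES arrays, against 42790 to 44943 over the fibroblast arrays. That sum was set mostly by Col1a1, Col1a2 and Col3a1, the markers with the highest signals. Col1a1 had 9.71, 10.17 and 10.56 on the rat ES arrays, and Fbn1 had 6.02, 6.47 and 6.72. Pdgfra changed little, at 5.60, 5.63 and 5.66. Only Twist2 was lower on array 3 than on array 1, at 5.89, 5.34 and 5.41. The marker list separated the rat groups as labelled, with 11 of 12 called lower in rat ES cells and 6 of 6 measured ES cell markers called higher, while Dcn was low in both groups and not called. The summed signal of 5 blood markers lay between 96.2 and 115 on the rat ES arrays and between 90.5 and 94.3 on the fibroblast arrays, and none was called. Cd68 was higher in rat ES cells by 0.57, past the adjusted p (limma, 0.00134) but under 2-fold and with both group means below the array medians, and it was the only blood marker with an unadjusted p under 0.05. Of 5 endothelial markers, Tek was called lower (-1.31), with both group means below the array medians, and none was called higher. Of 9 measured endoderm markers, 3 were called lower and none higher. The part that a varying number of fibroblast-like cells among the rat ES cultures has in the values of the matricellular genes was not tested.

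**Figure D3:**
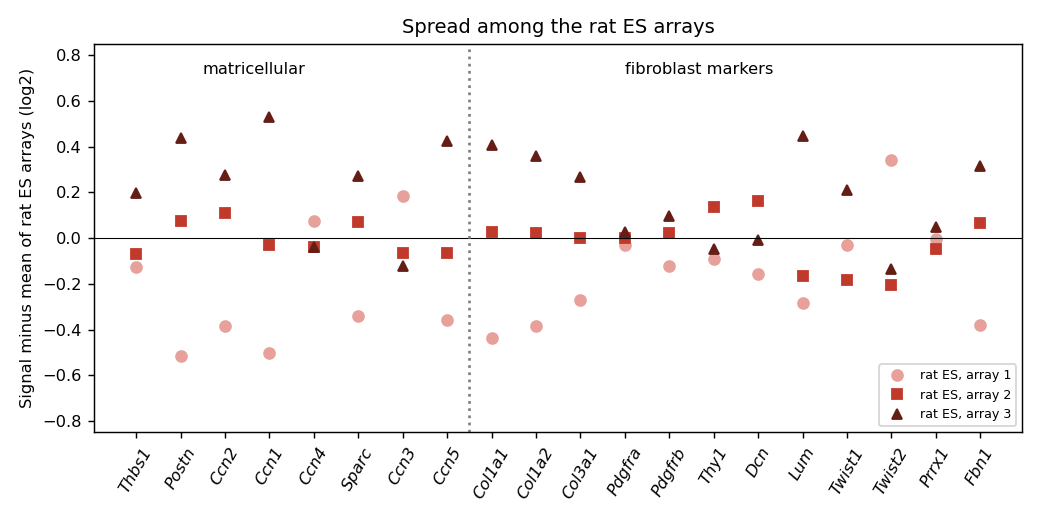
Signal of each rat ES array minus the mean of the 3 rat ES arrays (log2, y axis) for the 8 matricellular genes (left) and 12 fibroblast markers (right). Array 3 lies above array 1 in 6 of the 8 matricellular genes and in 11 of the 12 markers, whereas Ccn3 and Ccn4 have array 1 on top.

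By Euclidean distance between mean-centred profiles over the 6 rat arrays, the genes most like Ccn2 were Sdc2 (distance 0.106), Ehd2 (0.157) and Col3a1 (0.184). Those most like Sparc were Prtfdc1 (0.171), the collagen chaperone gene Serpinh1 (0.209) and the collagen gene Col1a1 (0.218). Those most like Thbs1 were Tgfb3 (0.282), Il1rl1 (0.688) and the smooth muscle gene Tagln (0.70). These profiles are set mostly by the difference between the 2 rat groups.

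Relatives of these genes were read from lists compiled by family and pathway. In these lists a gene was called at a limma adjusted p under 0.05 and at least a 2-fold difference, a rule that 20.7% of all genes passed in either direction and 10.6% passed as higher in rat ES cells. The rat ES means of Tnn, Smoc2, Sparcl1, Mgp, Pxdn, Itgb3, Itga4, Itga5, Cacna2d1, Tgfb2, Tgfb3, F3, Ankrd1 and Nt5e lay below the array medians. Signal was not separated from background there, so the sizes and order of the differences of these genes are uncertain. The fibroblast means of Pxdn and Nt5e lay below the medians too. Of 11 measured members of the same gene families, 6 were called lower in rat ES cells and 0 higher. Their median log2 difference was -1.31. Tgfbi, the closest relative of Postn, was 14.2-fold lower (log2 difference -3.83, SE 0.15, limma adjusted p = 1.2e-07). The calcium-binding protein gene Smoc1, which shares domains with Sparc, differed by -3.12 and the tenascin gene Tnn by -2.90. Smoc2 (-2.48), Fstl1 (-2.35) and Sparcl1 (-1.31) were also called lower. The other 5 were not called, and among them the cartilage thrombospondin Comp differed by -0.27 and the tenascin of the nervous system Tnr by -0.09.

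Other matricellular and adhesion-modulating genes were mixed. Of 12 measured, 4 were called lower and 1 higher, with a median of -0.36. The calcification inhibitor gene Mgp was at 5.26, 5.13 and 4.84 on the rat ES arrays and at 10.81, 11.04 and 10.78 on the fibroblast arrays, a log2 difference of -5.80 (limma adjusted p = 5.28e-09). Osteopontin (Spp1) differed by -4.57 and the galectin gene Lgals1 by -3.10. Pxdn was also called lower (-2.33), with both group means below the array medians. The 1 called higher was fibulin 1 (Fbln1), a protein of basement membranes and elastic fibres. It had signals of 9.65, 9.87 and 9.92 on the rat ES arrays, against 7.34, 7.25 and 7.22 on the fibroblast arrays, 5.83-fold higher in rat ES cells (log2 difference 2.54, SE 0.09, limma adjusted p = 5.95e-08). The galectin gene Lgals3 was also higher, by 0.45, past the adjusted p (limma, 0.00209) and under 2-fold.

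Of 18 measured receptors and binding partners of matricellular proteins, 11 were called lower and 0 higher. The median was -1.21. The integrin gene Itga4 differed by -4.51, the calcium channel subunit gene Cacna2d1, a thrombospondin receptor in neurons, by -4.48, and the endocytic receptor gene Lrp1 by -4.25 (limma adjusted p = 4.9e-08, 6.76e-09 and 9.65e-09). The thrombospondin receptor gene Cd47 was at 6.34, 6.40 and 6.26 on the rat ES arrays and at 8.98, 9.07 and 8.90 on the fibroblast arrays, 6.27-fold lower in rat ES cells. Cd36 was below the array medians in both groups and differed by -0.30 (limma adjusted p = 0.0577). The laminin receptor subunit gene Itga6 had the largest difference upward in the list, 0.93, which passed the adjusted p (6.31e-06) but not the 2-fold threshold.

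Of 15 measured genes of the TGF-beta, YAP/TEAD and SRF pathways, which are known to act upstream of Ccn1 and Ccn2, 7 were called lower and 0 higher. The median was -0.72. All 3 TGF-beta ligand genes were among them, with Tgfb3 at -6.87, Tgfb2 at -6.29 and Tgfb1 at -3.53 (limma adjusted p = 1.72e-09, 3.06e-09 and 3.76e-09). The other 4 were Lats2 (-2.25), Smad3 (-1.39), Tead3 (-1.32) and the YAP relative Wwtr1 (-1.27). The list includes inhibitors of these pathways, so the count of lower genes gives no direction of pathway activity. Yap1 itself differed by -0.50, Tead1 by -0.41 and Srf by -0.67, each past the adjusted p and under 2-fold, and Smad4 by -0.01. Smad7, an inhibitor of TGF-beta signalling, differed by 0.50 and the receptor gene Tgfbr1 by 0.33, both higher in rat ES cells past the adjusted p (limma, 0.00194 and 0.00484) and under 2-fold.

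Of 16 measured genes of a YAP and TEAD target signature without Ccn1 and Ccn2, 15 were called lower and 0 higher. The median was -2.26. Tgfb2, which like Lats2 also stands in the pathway list, had the largest difference. The tissue factor gene F3 followed at -5.86 (SE 0.14, limma adjusted p = 9.01e-09), with the receptor kinase gene Axl at -4.81 (limma adjusted p = 4.11e-09). Ankrd1, another standard YAP target, was called lower at -2.28. Only Ajuba was not called, at -0.16. The signature was compiled in other cells, and YAP activity was not measured here.

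**Figure D4:**
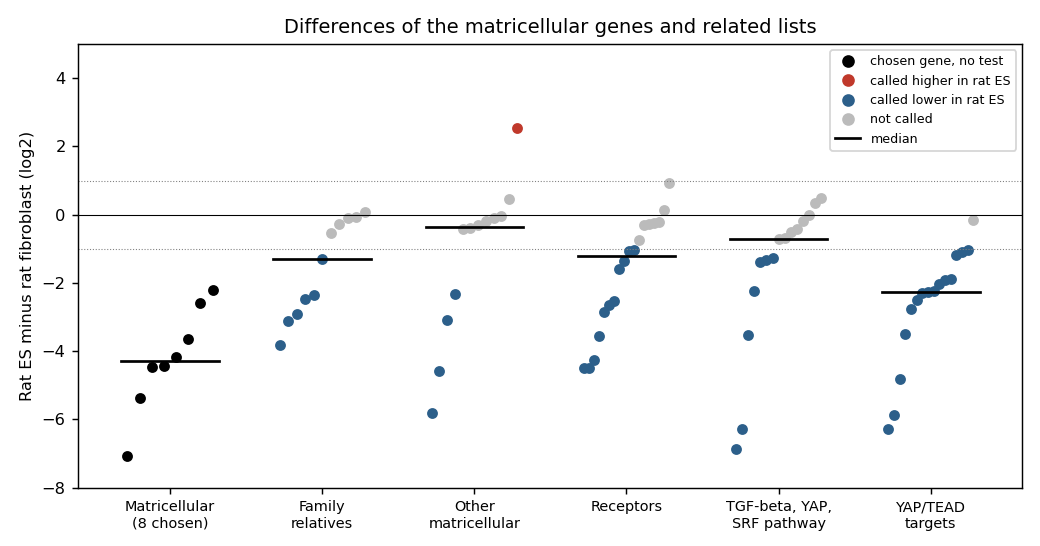
Rat ES minus rat fibroblast difference (log2, y axis) of each gene, for the 8 chosen matricellular genes (black, no test) and 5 lists of related genes (blue called lower, red called higher, grey not called; dotted lines mark 2-fold). Horizontal bars are medians, which run from -4.30 for the chosen genes and -2.26 for the YAP/TEAD targets to -0.36 for the other matricellular genes, where Fbln1 at 2.54 is the only gene called higher.

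Mouse ES cells were compared with the rat groups by rank, because the mouse and rat tables come from different arrays normalized separately. For 12114 symbols in both tables, each gene was given its percentile within its own array. Probe sets of different sequence are ranked against each other here, so no test was made. The mouse and rat ES cells also differ in species, strain, medium and the stated feeder removal, which cannot be told apart. The mouse arrays also share many values, with 15447 of 35557 probe sets identical on all 3. Among these were the probe sets of 4 of the 10 matricellular genes (Thbs2, Ccn3, Postn and Sparc). The agreement of the mouse arrays therefore understates their error.

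Mouse ES cells ranked 5 of the 8 shared genes above rat ES cells on every array and 3 below, where 44.9% and 42.5% of all shared genes were ranked entirely above or below. The median size of the difference in mean percentile was 23.1 points for the 8 genes and 8.63 points for all shared genes. Ccn1 lay at percentiles 94.3, 94.8 and 95.0 of the mouse ES arrays, and at 53.3, 60.5 and 70.0 of the rat ES arrays. Ccn2 lay between percentiles 96.2 and 96.6 in mouse ES cells, and between 64.4 and 75.3 in rat ES cells. Thbs1 lay between percentiles 74.0 and 77.2 in mouse ES cells, and between 44.2 and 47.9 in rat ES cells. These 3 genes were thus ranked 25.7 to 33.4 points higher on average in mouse ES cells. On the fibroblast arrays all 3 were at percentile 99.257 or above, higher than on any ES array.

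Postn had the opposite order and the widest gap. It lay between percentiles 4.67 and 4.90 of the mouse ES arrays and between 60.3 and 76.1 of the rat ES arrays. The mean difference was -63.9 points, and Postn was at 99.9 on each fibroblast array. Its mouse ES signal was the same on every array, 2.96, and lay below the mouse array medians of 4.75 to 4.77. Ccn3 averaged percentile 12.6 in mouse ES and 33.0 in rat ES cells, and Ccn4 averaged 25.9 in mouse ES and 46.4 in rat ES cells. Sparc was near the top in both, with a mean percentile of 96.7 in mouse ES and 92.7 in rat ES cells. Ccn5 was near the middle, at 52.3 in mouse ES and 44.3 in rat ES cells. With shared genes in the lowest 25% of either table left out, the mouse ES percentile was 1.50 for Ccn4 and 31.0 for Ccn5, and Ccn3 and Postn were among those left out.

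Thbs2 and Tnc, which lacked a named rat probe set, had mouse ES signals of 4.98 on each array for Thbs2 and of 4.84, 4.84 and 4.82 for Tnc. Among all 19938 named mouse genes Thbs2 lay between percentiles 45.2 and 45.8 and Tnc between 42.6 and 43.0. Both signals were close to the mouse array medians of 4.75 to 4.77.

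**Figure D5:**
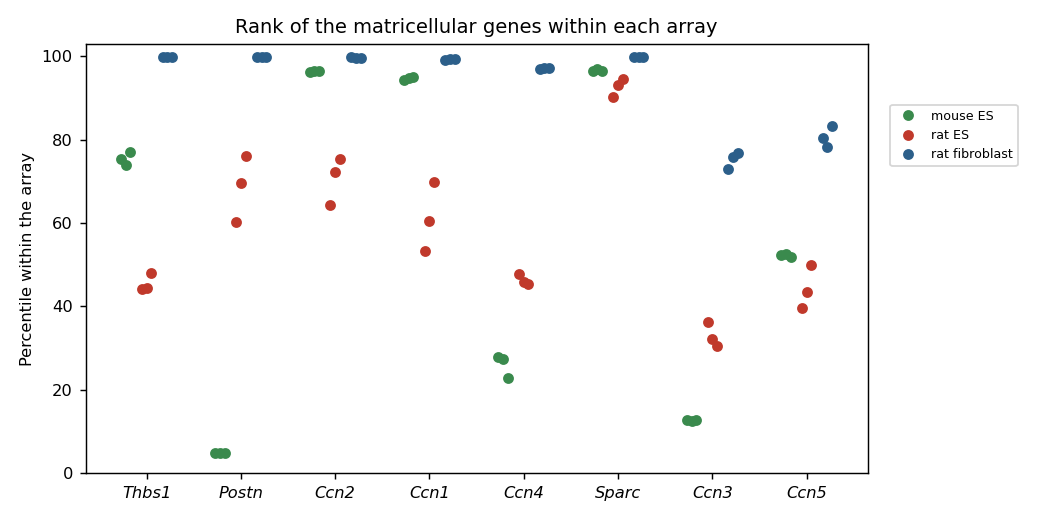
Percentile of 8 matricellular genes within each array (y axis), among 12114 symbols shared by the tables, for mouse ES, rat ES and rat fibroblast arrays (left to right, 1 point per array). Ccn1, Ccn2 and Thbs1 lie higher in mouse ES than in rat ES arrays, Postn, Ccn3 and Ccn4 lie lower, and every gene lies highest in fibroblasts.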

How the data were processed

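Biotin-labelled DNA made from total RNA was hybridized to 6 rat and 3 mouse arrays, per the labels' protocols. Each of the 2 deposited tables holds log2 signals by probe set. The scale was read from the range of the values, and the authors' normalization is not given in the sources used here. Array medians were 5.71 to 5.74 (rat) and 4.75 to 4.77 (mouse), and no further normalization was applied. The number of arrays limits the precision. Probe sets with 1 symbol in the platform annotation were kept, which can be old, at the highest mean per symbol. The test between rat groups was limma, version 3.58.1, run in R, version 4.3.3 (group only, all 14506 genes, no filter on level), with Benjamini-Hochberg adjustment.

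The genes, the lists, the tests and the rule for naming genes (every matricellular gene; in each list the 3 largest called differences and up to 2 called against the majority) were chosen with earlier results of these data known. Further list genes named with their values were added after seeing them. On simulated data for the rat comparison (14506 genes, 200 changed), limma recovered 96% of genes with a 2.83-fold change and 100% with an 8-fold change, and called 0 unchanged genes. The simulation drew independent normal noise at each gene's own spread and changed far fewer genes than were called in the data. It therefore does not give the error rate in these data. Arrays of the same number did not deviate together across the rat groups (correlations -0.00044, 0.031 and -0.0003), so numbers were not treated as pairs. Promoters came from RefSeq, assembly GRCr8.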

Additional observations from a re-analysis of the deposited data

How the results depend on the processing

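Over all settings tried for the rat comparison (quantile normalization, median centring, 2 filters on level, the mean of all probe sets, trended robust eBayes, 3 further thresholds, a replicate block and leaving out each array), all 8 matricellular genes met the rule for a decrease, and their median difference ran from -4.38 to -4.19. With the replicate number as a block, 2996 genes were called, as without it, and no list count changed. Leaving out 1 array at a time gave 2994 to 3035 called genes, differences of -4.69 to -4.17 for Ccn1 and -5.60 to -5.12 for Postn, and 10 to 11 receptors and 14 to 15 YAP/TEAD targets called lower. With no fold threshold, 8172 genes were called, 3694 of them lower, with 7 lower and 2 higher among the other matricellular genes, 1 higher among the receptors, and 12 lower and 2 higher among the pathway genes. At a log2 difference of at least 2, 995 genes were called, 617 of them lower. Among these were 5 family members, 7 receptors, 4 pathway genes and 10 YAP/TEAD targets. Median centring gave 9 receptors called lower. The stricter filter on level, at the median, leaves out list genes of low level. It gave 4 family members, 10 receptors and 13 YAP/TEAD targets called lower. The median percentile of the 8 shared genes in mouse ES cells was 63.9. It was 71.8 among all named genes, 64.5 with the mean of all probe sets and 78.2 with the filter on level, and leaving out a mouse array gave 63.6 to 64.2. That filter removed the low-ranked Ccn3 and Postn, and the other 6 genes ranked lower under it, among them Ccn4 at 1.50 against 25.9, Ccn5 at 31.0 against 52.3 and Thbs1 at 64.1 against 75.5. Averaging the mouse arrays as 1 sample, an alternative chosen after seeing the data, moved no percentile by more than the spread of the arrays. Signals near or below the array medians were not separated from background here, which limits the sizes of the differences of Ccn3, Ccn4, Ccn5, Thbs1 and the list genes with such signals.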
